A study of Mus musculus with 6 samples.

Results

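The genes followed in whole kidney were 9 cytokine and receptor genes: the receptor chains Il2rb, Il2rg, Il4ra, Il15ra, Il21r and Il10ra, and the ligands Il15, Il21 and Il10. They were found by gene name on the array, where they had 18 probes of 56605 probes in all, and the 9 genes were among 36870 gene names. The array was a single-colour microarray with probes of 60 bases. The samples were 3 female MRL/MpJ mice (MRL, the control) and 3 female MRL/MpJ-Fas lpr/lpr mice (LPR), all at 6 months of age, with 1 array for each mouse. LPR mice carry the lpr mutation of Fas, a death receptor of lymphocytes, on the MRL/MpJ background that the controls share, and they serve as a model of lupus nephritis. RNA came from the whole organ, so a change cannot be assigned to a cell type, and more cells of a type cannot be told apart from more RNA per cell.

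The common gamma chain, encoded by Il2rg, is a signalling subunit shared by the receptors of IL2, IL4, IL7, IL9, IL15 and IL21. Il2rb encodes the beta chain shared by the IL2 and IL15 receptors, and Il15ra, Il4ra and Il21r encode chains that bind their own ligand. The receptors signal through Janus kinases and STAT proteins. IL10 is a cytokine that restrains inflammation, and it signals through Il10ra, its ligand-binding chain, and Il10rb. These genes are known mostly from lymphocytes and myeloid cells, although IL15 is also made by kidney epithelium.

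Each value below is the log2 intensity of a probe minus the 75th percentile of its array, so 0 is the level of that percentile and a difference of 1 is a doubling. Testing needed a signal well above background in 3 or more of the 6 kidneys, and all 18 member probes had it. The groups were compared in limma, p-values were adjusted by Benjamini-Hochberg across the 39924 probes tested, and a probe passed at an adjusted p under 0.05. The median log2 change over all tested probes was -0.13. Arrays of the same group had a correlation of 0.990 to 0.993, and those of different groups 0.961 to 0.971. No spot was saturated. The brightest tested probe of a gene is called probe 1. Signals of different probes are not compared as levels, since each binds its target with its own strength.

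The probes that decide the results differ in their sequence, and the first 30 bases or a stretch of 30 bases is shown for 6 of them because probes of 1 gene did not always change alike. Capitals mark bases in runs of 16 that also occur, on either strand, in a probe of another gene or in the promoter window of another gene. Positions of probes are given on mm9, as the array annotation has them, and the exon or untranslated region at those positions was not analysed here.
Il21 probe 1, chr3:37124300-37124359, minus strand: AAATGCATTTCTTTCActtccatgttgtgt
Il21 probe 2, chr3:37121681-37121740, minus strand: tgtttgtgttcatggcttcttatttaagac
Il21r probe 1, chr7:132774961-132775020, plus strand: cactaTCAACAAATAAACATTacttgactt
Il21r probe 2, chr7:132776644-132776703, plus strand: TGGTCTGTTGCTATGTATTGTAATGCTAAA
Il2rg, chrX:98459802-98459860, minus strand: actGGCATGCACCACCACACCCAGCATggt
Il15ra probe 1, chr2:11655416-11655475, plus strand: actATATATGTATGTGTGTGTGTGTGTGTA
The array annotation ties Il21 probe 1 to 1 of the 2 RefSeq transcripts of Il21 (NM_001291041), and probe 2 to both (NM_001291041 and NM_021782). Il21r probe 1 is tied to an Ensembl transcript and a cDNA, while probe 2 carries the RefSeq transcript NM_021887. The stretch of Il15ra probe 1 is a GT repeat. It shared runs of 16 bases with 120 probes of other genes and with 189 promoter windows. The Il2rg probe shared such a run with 2 probes, those of Csf3r and Gm2347. Il21 probe 1 shared 1 with a probe of Skida1, and Il21 probe 2 shared none. Il21r probe 1 shared a run with 1 promoter window, and Il21r probe 2 had 33 of its 60 bases in runs shared with 2 promoter windows.

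Of the 18 member probes, 9 were higher and 1 was lower in LPR mice. Over all tested probes 6.54% were higher and 6.07% lower. By probe 1 of each gene, 5 of the 9 genes were higher, namely Il2rb, Il2rg, Il4ra, Il10 and Il10ra. In the same count 1 was lower, namely Il21, and 3 did not pass, namely Il15, Il15ra and Il21r. Il21 and Il21r were both higher on their probe 2, so their place in this count depends on the probe. Over the 25805 gene names with a tested probe, 7.12% were higher and 5.39% lower by probe 1. The median log2 change of the 9 genes was 0.44, against -0.12 over those 25805 gene names. The members were chosen with earlier results of these data known.

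**Figure D1:**
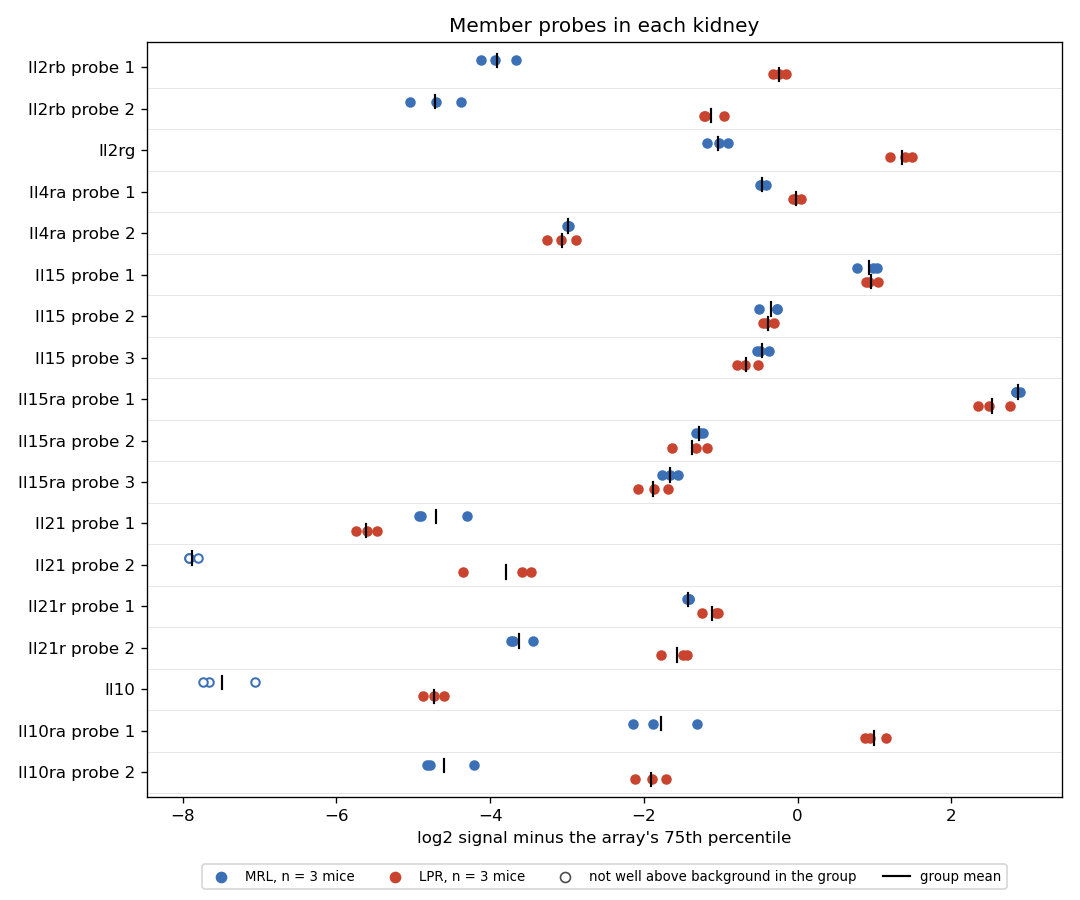
Log2 signal minus the 75th percentile of the array for each member probe in each kidney (dots, n = 3 mice for each group, black bars are group means). Open dots are probes that were not well above background in the group, which were Il21 probe 2 and Il10 in MRL mice. The LPR dots lie clear of the MRL dots for both Il2rb probes, Il2rg and both Il10ra probes, and mix with them for Il15.

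Il2rb changed most among the receptor chains of the 9 members, by its probe 1. Probe 1 (A_55_P2266178, chr15:78309771-78309830) read -3.93, -3.67 and -4.12 in the MRL mice and -0.15, -0.33 and -0.24 in the LPR mice. Every LPR kidney was above every MRL kidney. The mean was -3.91 ± 0.23 (SD, n = 3) in MRL and -0.24 ± 0.09 in LPR, a log2 change of 3.67 (standard error 0.14), or 12.7-fold, with a limma adjusted p of 1.8e-05. Probe 2 (A_51_P286496, NM_008368) read -4.70, -4.38 and -5.05 in MRL and -1.20, -0.96 and -1.22 in LPR, and its log2 change of 3.58 (standard error 0.18, limma adjusted p = 5.5e-05) lay within the 95% confidence interval of probe 1, 3.336 to 4.001. Both groups were well above background on both probes.

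Il2rg, the shared chain itself, had 1 probe (A_55_P2805883, NM_013563). It read -1.18, -0.91 and -1.02 in the MRL mice and 1.48, 1.21 and 1.40 in the LPR mice. The groups did not overlap. The log2 change was 2.40 (standard error 0.13), or 5.27-fold, with a limma adjusted p of 6.0e-05.

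Of the ligand-binding chains, Il21r and Il4ra gave different results on their probes, and Il15ra did not pass on any. Il21r probe 2, the one with the RefSeq transcript, read -3.70, -3.45 and -3.73 in MRL and -1.44, -1.49 and -1.77 in LPR. It rose by 2.06 on the log2 scale (standard error 0.14, 4.17-fold, limma adjusted p = 1.7e-04). Il21r probe 1 read -1.44, -1.41 and -1.42 in MRL and -1.24, -1.03 and -1.07 in LPR. The groups did not overlap. The log2 change was 0.31 with a standard error of 0.10, and the limma adjusted p of 0.101 missed the threshold.

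Il4ra encodes the chain that binds IL4 and that also serves in the IL13 receptor. Probe 1 (A_51_P464478) read -0.41, -0.47 and -0.49 in MRL and -0.04, 0.04 and -0.06 in LPR. This was a small rise of 0.44 on the log2 scale (standard error 0.10, 1.36-fold, limma adjusted p = 0.029), and the call was lost without any 1 of 5 mice, namely MRL 1, 2 or 3 and LPR 1 or 3, and with the slide column as a block (limma adjusted p from 0.0102 to 0.163 over the 20 alternatives). Probe 2 (A_55_P1966189) read -2.991, -2.999 and -2.979 in MRL and -3.26, -2.88 and -3.07 in LPR, with a log2 change of -0.081 (standard error 0.12, limma adjusted p = 0.690), and its groups overlapped.

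Il15ra encodes the high-affinity IL15 receptor, which presents IL15 to neighbouring cells. Its probe 1, the GT repeat probe above, read 2.84, 2.90 and 2.84 in MRL and 2.34, 2.76 and 2.49 in LPR, with a log2 change of -0.33 (95% confidence interval -0.64 to -0.016, limma adjusted p = 0.150). The groups did not overlap, and without LPR 2 the probe was called lower, at -0.44 (limma adjusted p = 0.0487). Probe 2 (A_52_P55902) had -0.10 (-0.43 to 0.23) and probe 3 (A_55_P2041738) -0.22 (-0.54 to 0.092), and their groups overlapped. Probe 2 spans 6502 bases of the genome with its 60 bases, so it crosses a splice junction. The signal of probe 1 cannot be assigned to Il15ra alone from its sequence.

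**Figure D2:**
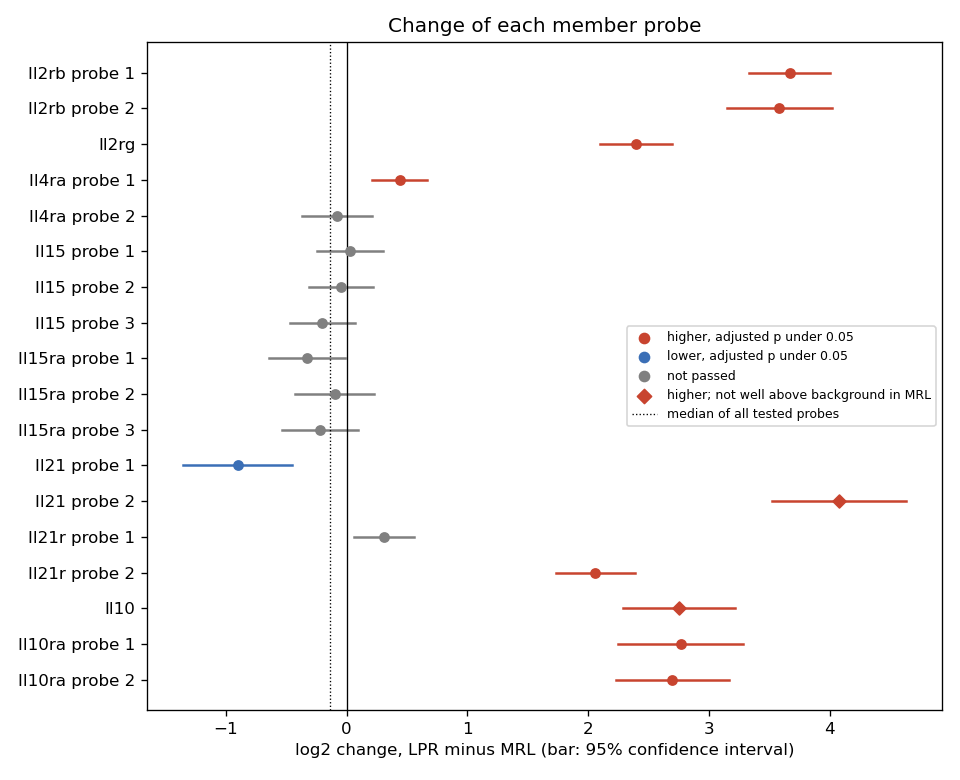
Log2 change between LPR and MRL mice for each member probe (points) with its 95% confidence interval (bars), and the median of all tested probes (dotted line, -0.13). Diamonds are probes that were not well above background in MRL mice, for which the fitted change is no measured fold. Il2rb, Il2rg and Il10ra lie at 2.40 or above, while the intervals of the Il15 probes hold 0.

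The ligands differed from one another. Il15 did not pass on any of its 3 probes. Probe 1 (A_66_P133150) read 0.78, 1.03 and 0.97 in MRL and 0.93, 0.89 and 1.05 in LPR, with a log2 change of 0.030 (95% confidence interval -0.24 to 0.30, limma adjusted p = 0.884). Probe 2 (A_55_P2744693) had -0.045 (-0.31 to 0.22) and probe 3 (A_55_P2733222) -0.20 (-0.47 to 0.071). The groups overlapped on each, and all 3 intervals lie between -0.47 and 0.30. Il15 and Il15ra thus gave no call on 6 probes, and Il2rb and Il2rg, the other 2 chains of the IL15 receptor, were higher on all 3 of theirs.

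Il21, a cytokine of activated helper T cells, gave opposite calls on its 2 probes. Probe 2, which matches both transcripts, was not well above background in any MRL mouse, at -7.80, -7.92 and -7.91, and was well above it in all LPR mice, at -3.58, -4.35 and -3.46. LPR kidneys thus had at least 4.40-fold more signal, taking the lowest signal well above background on each MRL array as the limit (limma adjusted p = 8.4e-05). Probe 1 read -4.30, -4.93 and -4.90 in MRL and -5.75, -5.48 and -5.60 in LPR, all well above background. It was lower by a log2 change of -0.90 (standard error 0.19, limma adjusted p = 0.027), a call that was lost without LPR 1, without LPR 3, and with the slide column as a block (limma adjusted p from 0.0169 to 0.149 over the 20 alternatives).

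The difference in change between the probes was tested within arrays for the 3 genes whose probes differed in call. The log2 change of probe 1 minus that of probe 2 was -1.75 for Il21r and 0.52 for Il4ra. No size is given for Il21, whose probe 2 has only a bound in MRL mice. Each difference of change had a p of 0.1 in an exact two-sided permutation test over the 6 arrays (adjusted over the 3 tests, 0.1), the smallest that 3 against 3 can give, so no test here could pass 0.05.

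**Figure D3:**
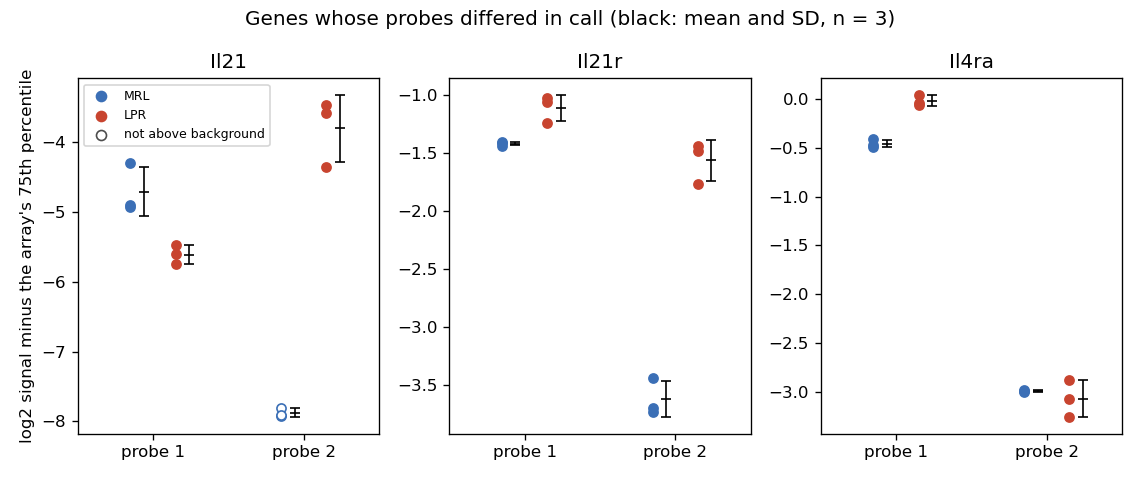
Log2 signal minus the 75th percentile for both probes of Il21, Il21r and Il4ra in each mouse (dots), with the mean and SD (black, n = 3). Open dots are probes that were not well above background. Il21 probe 1 is lower in LPR mice and probe 2 higher, and the Il21r rise is on probe 2.

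Il10 was below the detection limit in MRL mice. Its probe (A_51_P430766, NM_010548, chr1:132920943-132921002) read -7.65, -7.06 and -7.74 in MRL, not well above background on any array, and -4.87, -4.59 and -4.73 in LPR, where it was on all. LPR kidneys thus had at least 2.31-fold more signal (limma adjusted p = 2.2e-04). Il10ra rose on both probes. Probe 1 (A_55_P2830788) read -2.14, -1.89 and -1.31 in MRL and 1.16, 0.93 and 0.87 in LPR, a log2 change of 2.77 (standard error 0.22, 6.80-fold, limma adjusted p = 3.5e-04). Probe 2 (A_55_P2736330) read -4.78, -4.82 and -4.21 in MRL and -1.71, -1.89 and -2.12 in LPR. It rose by 2.70 on the log2 scale (standard error 0.20, 6.48-fold, limma adjusted p = 2.4e-04). The groups did not overlap on either. Il10rb, the second chain of the IL10 receptor, had a log2 change of 0.17 (limma adjusted p = 0.31).

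With normexp background correction, which adds an offset to the intensities, the calls of the member probes were kept but dim probes changed less: the log2 change was 1.504 for Il10ra probe 2, 1.34 for Il21r probe 2, -0.33 for Il21 probe 1, and 2.59 and 2.13 for the Il2rb probes. For Il10 and Il21 probe 2, not well above background in MRL mice, the fitted changes were 0.34 and 0.82, smaller than their bounds above (1.21 and 2.14 on the log2 scale), so these bounds hold for the background-subtracted signals and not under normexp. Slide column is the name used here for the first position number at the end of the array names. MRL 1 to 3 and LPR 1 shared the number 1, and LPR 2 and 3 had 2. The labels do not give the layout of the slide, so this number may stand for a column or a row. Within the shared column the log2 change was 3.76 for Il2rb probe 1, 2.52 for Il2rg and 2.93 for Il10ra probe 1, and these passed. This fit has 1 LPR mouse, so its spread comes from the MRL arrays alone and the LPR mouse is assumed to vary like them.

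The other genes of these pathways were taken from lists of 40 genes, of which 36 could be tested. Of these 36 genes, 11 were higher and 0 lower by probe 1, with a median log2 change of 0.18. Over the 25805 gene names with a tested probe, 7.12% were higher and 5.39% lower. The lists were chosen with earlier results of these data known. The other receptor chains and ligands had 3 higher of 12 tested. Il7r, the IL7 receptor chain, rose by 3.86 on the log2 scale (limma adjusted p = 6.0e-04) and Crlf2, the chain of the thymic stromal lymphopoietin receptor, by 1.31 (limma adjusted p = 4.4e-04). Il9r, which had no MRL array well above background on either probe, was at least 5.78-fold higher on probe 1 and at least 1.16-fold on its other probe. The fitted log2 change of Il9r probe 1 fell to 0.79 over its 19 alternatives, below its bound of 2.53, so this bound does not hold under all of them. Il2ra, the alpha chain of the IL2 receptor, had a log2 change of 0.29 on probe 1 (limma adjusted p = 0.16) and 1.91 on its other probe (limma adjusted p = 0.0081).

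The ligands of the same receptors did not pass. Il2 had a log2 change of 0.033, Il7 of 0.34 and Il13 of -0.31. Il4 had a fitted log2 change of 1.18 with a limma adjusted p of 0.155. Among MRL mice it was well above background only in MRL 1. There it read -5.33, within the LPR values of -5.28, -5.44 and -5.42. Without MRL 1 it passed at a fitted change of 1.79, which rests on undetected MRL signal and is no measured fold. Il9 was not tested, since fewer than 3 arrays showed it well above background. Il13ra1, a partner of Il4ra, had 0.13, and Il13ra2 -0.29. Of the IL10 family, 5 of 8 genes were tested and 0 passed by probe 1.

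Signalling genes had 3 higher of 9 tested. Jak3, the kinase that binds the common gamma chain, rose by 0.65 on probe 1 (limma adjusted p = 0.042). That call was lost without any 1 of MRL 2, MRL 3 and LPR 1 to 3. Its other probes did not pass, with log2 changes of 0.68 (limma adjusted p = 0.091) and -0.21 (limma adjusted p = 0.23). Stat3, the main IL10 and IL21 effector, rose by 0.45 on probe 1 (limma adjusted p = 0.034), a call lost without any 1 mouse. The other Stat3 probes had 0.57 (limma adjusted p = 0.026) and 0.041 (limma adjusted p = 0.92). Of the feedback and target genes 5 of 10 were higher. These were Socs1 (2.76) and Socs3 (2.19), which inhibit cytokine receptors, the kinase Pim1 (1.35), the NF-kappaB partner Bcl3 (1.74) and Prdm1 (2.15), the regulator of plasma cells. The call of Pim1 was lost with the slide column as a block, within the shared column and with the methods' t-test, and that of Socs3 within the shared column (limma adjusted p = 0.0619). Cish and Socs2, targets of STAT5, had -0.99 and -0.86 and did not pass.

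**Figure D4:**
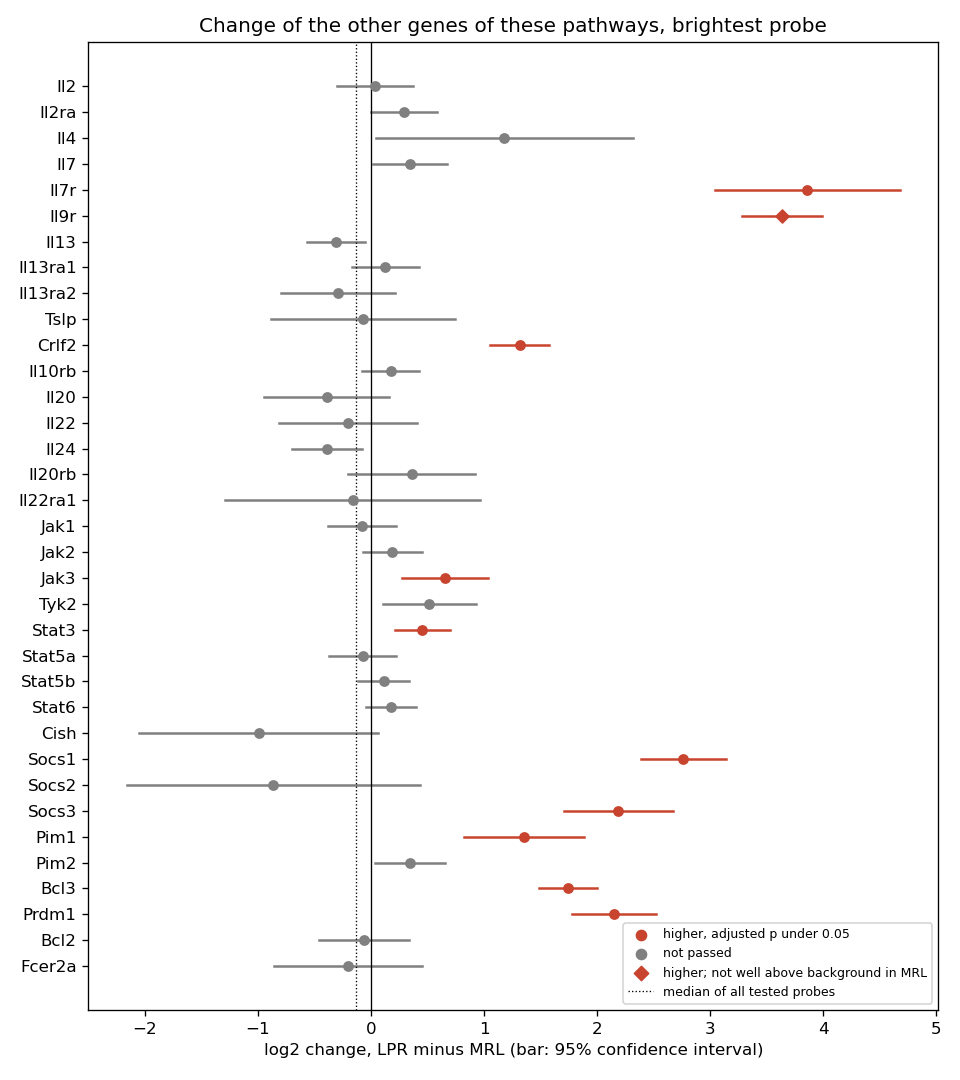
Log2 change between LPR and MRL mice for tested genes of the other pathway lists by their brightest probe (points; 1 tested gene is not drawn), with 95% confidence intervals (bars) and the median of all tested probes (dotted line). Il7r lies at 3.86, and none is lower by the test. The diamond is Il9r, which was not well above background in MRL mice and has only a bound there.

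Marker genes of immune cells were also higher in LPR mice, although not all of them. For the marker counts by probe 1, the shares over the 25805 gene names with a tested probe are 7.12% higher and 5.39% lower. Of the T cell markers 7 of 8 were higher, from 0.53 for Cd4 to 4.15 for Cd3g on the log2 scale, and Cd8a did not pass (0.026). The summed level of the 8 markers, as a multiple of the 75th percentile, was 2.70 to 3.14 in MRL and 11.2 to 12.6 in LPR. This sum and those that follow weigh the brightest probes most, so they do not measure the amount of a cell type. Macrophage and monocyte markers had 5 higher of 6, with a summed level of 35.2 to 42.0 in MRL and 121 to 130 in LPR. Dendritic cell markers had 3 of 4, with 0.365 to 0.375 and 2.30 to 2.88, B cell markers 3 of 6, with 1.57 to 1.69 and 4.33 to 5.60, and NK cell markers 1 of 2 tested of 4, with 0.0289 to 0.0570 and 0.261 to 0.350. Of the NK markers, Eomes was higher (3.43), Ncr1 did not pass (0.81), and Klrb1c and Klre1 were not tested. The summed NK level in LPR mice came mostly from Eomes, with a mean log2 signal of -1.83 there against -5.03 for Ncr1. That sum thus shows the rise of Eomes and not of the NK markers as a set. The part of these cell types in the changes of the members was not tested.

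The kidney tubule and podocyte markers were all well above background in both groups, with 7 of 8 not passing and Lrp2 lower at -0.39 (limma adjusted p = 0.0497). Their summed level was 614 to 647 in MRL and 506 to 538 in LPR. Of the endothelial markers 1 of 3 was lower (Kdr, -0.57), with a summed level of 5.27 to 5.84 in MRL and 4.09 to 4.52 in LPR. Stromal markers had 2 of 3 higher, with 8.45 to 10.2 and 15.3 to 15.9. Fat and adrenal markers did not pass, with a summed level of fat markers of 1.64 to 2.34 in MRL and 0.139 to 1.29 in LPR, the lowest in LPR 3. Fas, tested on 2 probes, had a log2 change of -0.47 on probe 1 (limma adjusted p = 0.24) and was at least 1.47-fold higher on probe 2. Since their place relative to the mutation is not known here, they do not check the labels.

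**Figure D5:**
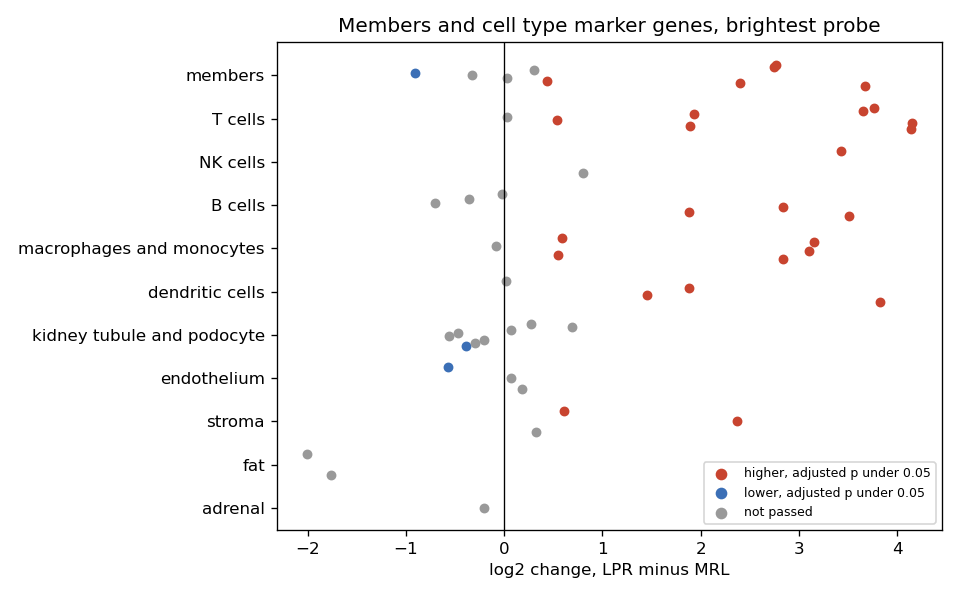
Log2 change between LPR and MRL mice of the 9 members and of the marker genes of each cell type, by the brightest tested probe (points). Most immune cell markers lie above 0, as do 7 of the 9 members, and kidney markers lie from -0.57 to 0.70. Of these 7 members, Il15 and Il21r did not pass.

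The profiles over the 6 arrays that were most like Il2rg, by Euclidean distance between log2 values centred on each probe's mean among 16841 genes with a RefSeq name and a probe well above background on all 6 arrays, were those of Arhgap9 (distance 0.173), Irf1 (0.210), C3 (0.267), Kif1a (0.269) and H2-Q7 (0.281). For Il10ra they were Casp1 (0.309), Chil3 (0.310), Apol9b (0.329), Cd48 (0.335) and Socs1 (0.355). Both sets were picked from the same 6 arrays, so this is a description.

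Several members lie beside another gene of the pathways. By the order of protein-coding genes in RefSeq on GRCm38.p6, Il4ra and Il21r are next to each other, as are Il2ra and Il15ra, and Il2 and Il21, and Il10 lies beside Il19. Beside Il2rg, Gm614 had a log2 change of 0.068 and Med12 of 0.025, and beside Il10ra, BC049352 had -0.30 and Tmprss13 0.010. None of these passed. Inpp4b, a neighbour of Il15, rose by 0.94 (limma adjusted p = 0.011), and Il15 itself did not pass.

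The 250 bases before the start of 3 members are shown because Il4ra and Il21r lie side by side and Il2rg rose on its only probe. They come from RefSeq on GRCm38.p6, and windows of 5 of the 9 members were used here. Capitals mark the motifs found among those searched, which were the STAT site TTCNNNGAA, the ETS site CCGGAAG, the AP-1 site TGANTCA and the IRF site GAAANNGAA, on both strands.
Il2rg, chrX:101268256-101268505, minus strand: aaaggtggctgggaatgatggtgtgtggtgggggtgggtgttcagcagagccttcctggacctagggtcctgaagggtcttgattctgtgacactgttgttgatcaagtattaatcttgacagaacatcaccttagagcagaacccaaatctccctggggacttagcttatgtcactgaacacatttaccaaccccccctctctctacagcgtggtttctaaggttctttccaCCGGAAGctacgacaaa
Il4ra, chr7:125552021-125552270, plus strand: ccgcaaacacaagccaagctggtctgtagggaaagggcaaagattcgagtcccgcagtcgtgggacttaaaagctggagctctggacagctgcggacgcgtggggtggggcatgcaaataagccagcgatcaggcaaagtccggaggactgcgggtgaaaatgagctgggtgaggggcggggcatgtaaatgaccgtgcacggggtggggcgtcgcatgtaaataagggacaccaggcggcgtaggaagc
Il21r, chr7:125603179-125603428, plus strand: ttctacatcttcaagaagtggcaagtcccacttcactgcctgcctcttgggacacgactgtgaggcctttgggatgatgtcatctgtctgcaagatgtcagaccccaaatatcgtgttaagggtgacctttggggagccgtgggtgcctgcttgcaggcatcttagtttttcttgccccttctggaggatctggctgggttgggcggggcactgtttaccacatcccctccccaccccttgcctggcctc
The ETS site of Il2rg lay 17 to 11 bases before the start. For Il15ra, which gave no call, 1 window held an ETS site at positions -104 to -98 and an IRF site at -149 to -141 from its start. Its other window held only an AP-1 site, at -30 to -24 from a different start. The window of Il21 held none. Of all 32851 windows of this length 6.91% held the ETS site, 7.02% held the STAT site, 6.75% the AP-1 site and 7.13% the IRF site. The windows of Il4ra and Il21r held none of these letters. The motifs were chosen with the values known.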

How the data were processed

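Whole-kidney RNA from 3 MRL and 3 LPR mice was labelled with Cy3 and hybridised to Agilent mouse arrays, 1 for each mouse, on 1 slide. The authors extracted the intensity of each spot with Agilent Feature Extraction 12.0.3.1, which subtracts the background, and deposited these scanner files. The authors also deposited a table of the same values as a linear ratio, each intensity divided by a constant close to the array's 75th percentile, with no further centring. That table was used only as an alternative.

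Spots of controls and the 73 to 90 outlier spots of each array were removed, log2 intensities were reduced by each array's 75th percentile, and the spots of 1 probe were averaged. Between 69.6% and 73.5% of spots were well above background. The number of arrays limits the precision. LPR was compared with MRL in limma 3.58.1 (R 4.3.3), which was tested on simulated data. The members, gene lists and tests were chosen with earlier results of these data known. All member probes are named, and pathway genes when they passed or share a receptor with a member, except 1 pathway gene that is counted but not reported here. Groups come from the labels. Alternatives were normexp correction with an offset of 50, other normalizations, filters, tests, blocks and leaving out each mouse.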

Additional observations from a re-analysis of the deposited data

How the results depend on the processing

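Of the 10 member probes that passed, 8 passed under every alternative that could be run for them: both Il2rb probes, Il2rg, both Il10ra probes, Il10, Il21 probe 2 and Il21r probe 2. The calls of Il4ra probe 1 and Il21 probe 1 were lost under 9 and 7 of 20 alternatives, and the cause was not tested. The number of member probes and genes lower became 0 with no filter on dim probes, with the methods' t-test, with the slide column as a block, within the slide column that holds both groups and with the replicate block. It was also 0 for genes with a floor at the detection limit and with the mean of all tested probes of a gene. With that mean 6 member genes were higher: Il21 turned to higher (a fitted 1.59 that includes the undetected MRL signal of probe 2, limma adjusted p = 9.1e-04), Il21r passed (1.18, limma adjusted p = 4.9e-04) and Il4ra did not (0.18, limma adjusted p = 0.271). Leaving out single mice gave 0 to 2 lower and 8 to 9 member probes and 4 to 5 member genes higher, and 9 to 12 pathway genes higher. With the slide column as a block 1 pathway gene, Il20, was lower, and within the slide column of both groups 7 pathway genes were higher. With the replicate block 8 member probes were higher. Deviations from the group mean had correlations of 0.12, 0.020 and 0.0052 between mice with the same number. Between mice with different numbers they ran from -0.067 to 0.051. Whether mice with the same number were paired was not tested. Without 1 mouse, changes near 0 crossed it: Il15 probe 1 ranged from -0.046 to 0.081, with -0.017 without LPR 3, Il4ra probe 2 from -0.18 to 0.014, Il15ra probe 2 from -0.20 to 0.028 and Il2 from -0.058 to 0.16, with -0.0062 without MRL 3. Il2 was -0.16 and Il7 -0.066 with normexp, and Il2 was -0.21 with the slide column as a block and within the column of both groups. Over all tested probes, 2610 higher and 2423 lower became 2532 and 4542 with normexp, 1732 and 1346 with the methods' t-test, 1469 and 456 with the slide column as a block, 1105 and 309 within the column of both groups, 2158 and 1086 with no filter on dim probes, and 2208 and 1107 with the replicate block. Without 1 mouse they ranged from 1968 to 2378 higher and 749 to 2270 lower. Signals near background limit Il10, Il21 probe 2 and Il9r to lower bounds. The lowest fitted change of each over the alternatives was below its bound.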
